A study of Homo sapiens with 6 samples.

Results

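Replication licensing genes encode the MCM helicase and the proteins that place it on origins of DNA replication and switch it on. The group comprised 10 genes chosen by name (MCM2, MCM3, MCM4, MCM5, MCM6, MCM7, MCM10, CDC6, CDT1 and CDC45), out of 18971 autosomal protein-coding genes of the annotation. They were looked up in lists of regions bound by N-Myc or JMJD6 in the neuroblastoma line CHP-134, which was established from a human tumour, is MYCN-amplified and carries a gain of the distal long arm of chromosome 17. ChIP-Seq, the sequencing of DNA recovered with an antibody from cross-linked chromatin, was performed in 3 samples with an anti-N-Myc antibody (sc-53993), cross-linked with formaldehyde, and in 3 samples with an anti-JMJD6 antibody (ab64575), cross-linked with DSG and then formaldehyde. No treatment of the cells beyond cross-linking is named in the labels, and all samples came from this single line, so the lists describe one cell line. Antibody and cross-linking cannot be told apart in any difference between the lists. The comparisons address whether N-Myc and JMJD6 occupied the promoters, typical enhancers and super-enhancers of these genes.

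Licensing takes place before S phase. The origin recognition complex marks an origin, CDC6 and CDT1 join it, and together they load the ring of MCM2 to MCM7 around DNA. In S phase CDC45 and the GINS complex bind the loaded ring and MCM10 helps to start unwinding. Transcription of many of these genes rises at the entry into S phase through E2F factors, and Myc proteins bind DNA as dimers with MAX at E-boxes. JMJD6 is a jumonji domain protein known as an arginine demethylase and a lysyl hydroxylase.

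The values are positions. The deposited lists held 10172 N-Myc peaks and 561 JMJD6 peaks that were common to the 3 samples of each antibody, without height, score or read count. The depth behind a peak is therefore unknown, no spread between samples can be given, and a gene that is not listed may still carry binding below the peak threshold. No test was made over genes, and each count is set beside the share over all autosomal coding genes.

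N-Myc was listed at the promoters of 5 of the 10 genes, namely MCM3, MCM4, MCM7, MCM10 and CDC6. The promoters of MCM2, MCM5, MCM6, CDT1 and CDC45 were not in the N-Myc promoter list. A promoter here is 1 kb on each side of a RefSeq start site that overlaps a peak. Over all autosomal coding genes 18.6% were in that list. By position, with a common N-Myc peak within 1 kb of any annotated start, the same 5 genes were counted, beside 21.7% of coding genes. None of the 10 genes was in the JMJD6 promoter list, where the share over coding genes was 0.664%, nor in any list of regions bound by both proteins.

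The sequence that ends at the start site is shown for 4 of the genes with an N-Myc promoter peak, and for MCM2 and MCM6 as genes with motifs but without such a peak. Each run is GRCh37 reference sequence, read in the direction of the gene and ending on a start base, which is the start of the promoter row for MCM3, MCM10 and CDC6 and the canonical start of the annotation for MCM7, MCM2 and MCM6. The runs are 200 bases long, except those of MCM2 (172 bases) and MCM7 (30 bases), which were shortened where exons of other transcripts begin. Capitals mark the canonical E-box CACGTG, the non-canonical E-box CACGCG and the E2F-type motif TTTNNCGC, each searched on both strands, so that CGCGTG and GCGNNAAA are also in capitals. The runs of MCM7 (chr7:99699020-99699049, minus strand), MCM3 (chr6:52149679-52149878, minus strand), MCM10 (chr10:13203354-13203553, plus strand) and CDC6 (chr17:38443946-38444145, plus strand) lay wholly inside an N-Myc peak. Those of MCM2 (chr3:127317083-127317254, plus strand) and MCM6 (chr2:136634013-136634212, minus strand) did not overlap a peak.
MCM7: cggtCACGTGgggggcgacgTTTCGCGCca
MCM3: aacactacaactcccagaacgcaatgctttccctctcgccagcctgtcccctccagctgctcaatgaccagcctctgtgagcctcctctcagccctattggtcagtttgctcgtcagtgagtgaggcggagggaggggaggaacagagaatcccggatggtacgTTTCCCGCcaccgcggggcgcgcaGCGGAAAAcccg
MCM10: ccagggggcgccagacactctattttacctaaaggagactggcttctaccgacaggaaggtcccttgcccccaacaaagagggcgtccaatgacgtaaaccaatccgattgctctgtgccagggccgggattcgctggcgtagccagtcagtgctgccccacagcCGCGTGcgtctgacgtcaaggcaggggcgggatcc
CDC6: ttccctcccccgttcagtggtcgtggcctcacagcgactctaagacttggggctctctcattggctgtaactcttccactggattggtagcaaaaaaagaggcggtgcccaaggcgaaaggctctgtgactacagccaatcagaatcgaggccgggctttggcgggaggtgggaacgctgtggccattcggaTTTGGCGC
MCM2: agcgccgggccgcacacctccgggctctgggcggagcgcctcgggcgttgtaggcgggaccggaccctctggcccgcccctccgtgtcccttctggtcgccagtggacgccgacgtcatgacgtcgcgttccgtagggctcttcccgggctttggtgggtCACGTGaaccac
MCM6: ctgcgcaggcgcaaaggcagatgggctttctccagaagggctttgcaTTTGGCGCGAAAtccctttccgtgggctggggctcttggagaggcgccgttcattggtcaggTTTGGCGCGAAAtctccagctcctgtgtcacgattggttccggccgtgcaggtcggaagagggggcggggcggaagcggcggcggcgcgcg

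In these runs, counted from the last base printed as 0, MCM7 held a canonical E-box at -25 and an E2F-type motif at -9. MCM3 held E2F-type motifs at -35 and -11, CDC6 one at -7, and MCM10 a non-canonical E-box at -34 and no E2F-type motif. The run of MCM2 held a canonical E-box at -11, without an N-Myc peak. That of MCM6 held 4 E2F-type matches, in overlapping pairs on opposite strands at -152 and -148 and at -90 and -86.

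The MCM2 to MCM7 subunits form the core of the replicative helicase, and 3 of the 6 had an N-Myc promoter row. Positions from here on are given relative to the canonical start of the annotation, which is 0, in the direction of transcription. At MCM3 (chromosome 6, 52128812 to 52149679, minus strand) the peak from 52149420 to 52149900 was 481 bp wide and centred at -120, which is 19 bp from the start that the promoter row uses. It covered both starts and the row of no other gene. At MCM7 (chromosome 7, 99689856 to 99699563, minus strand) there were 2 promoter rows and 2 peaks. The larger peak, from 99698907 to 99699373, was 467 bp wide and centred at -120, over the shared promoter of MCM7 and AP4M1, a gene on the opposite strand that encodes a subunit of an adaptor complex. Its centre lay 32 bp from a start of AP4M1. The smaller MCM7 peak, from 99698067 to 99698295, was 229 bp wide and centred at 839, in an intron of the canonical transcript and 85 bp from a start of another MCM7 transcript.

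At MCM4 (chromosome 8, 48872745 to 48890720, plus strand) the peak from 48872773 to 48873410 was 638 bp wide, the widest of the group. It was centred at -410, or 330 bp after the start used by the promoter row. PRKDC, which encodes the catalytic subunit of DNA-dependent protein kinase, starts on the opposite strand and had a promoter row over the same peak. Promoter rows of different genes on both strands lay over 3 of the 6 promoter peaks of the group, counting both MCM7 peaks, beside 22% of 3550 N-Myc promoter peaks.

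The other subunits had their nearest N-Myc peak farther away. For MCM2 (chromosome 3, 127317253 to 127341279, plus strand) it was 6.75 kb upstream, from 127310110 to 127310506, and lay 370 bp from a start of TPRA1. For MCM5 (chromosome 22, 35796127 to 35821424, plus strand) it was 22.9 kb upstream, outside coding genes, with HMOX1 as the nearest coding start at 3285 bp. For MCM6 (chromosome 2, 136597196 to 136634013, minus strand) it was 36.4 kb downstream of the start, in the 3′ untranslated exon of MCM6 itself. That peak, from 136597250 to 136597576, held a canonical E-box, and its nearest other coding start was that of LCT at 2659 bp. It was in no promoter or enhancer row.

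MCM10, which takes part in activating the loaded helicase, carried an N-Myc peak from 13203311 to 13203611 on chromosome 10, where the gene runs from 13203558 to 13253110 on the plus strand. The peak was 301 bp wide and centred at -97. CDC45, the subunit that joins the ring at activation, had no promoter row (chromosome 22, 19466980 to 19508135, plus strand). Its nearest N-Myc peak lay in the gene, 34.7 kb downstream of the canonical start, from 19502109 to 19502640, with its centre in a coding exon. That peak was in no promoter or enhancer row. An alternative CDC45 transcript starts 1317 bp from it, so CDC45 was counted when starts within 2 kb of a peak were taken.

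The loading factors differed from each other in the lists. CDC6 (chromosome 17, 38444131 to 38460909, plus strand) had a peak from 38443841 to 38444408, which was 568 bp wide and centred at -6.5, the closest of the group to a canonical start. CDT1 (chromosome 16, 88870197 to 88875666, plus strand) had no row of any kind. Its nearest N-Myc peak, from 88839186 to 88840060, was 30.1 kb upstream within PIEZO1 and held 3 canonical E-boxes. That peak lay in an N-Myc typical enhancer row that did not name CDT1.

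**Figure D1:**
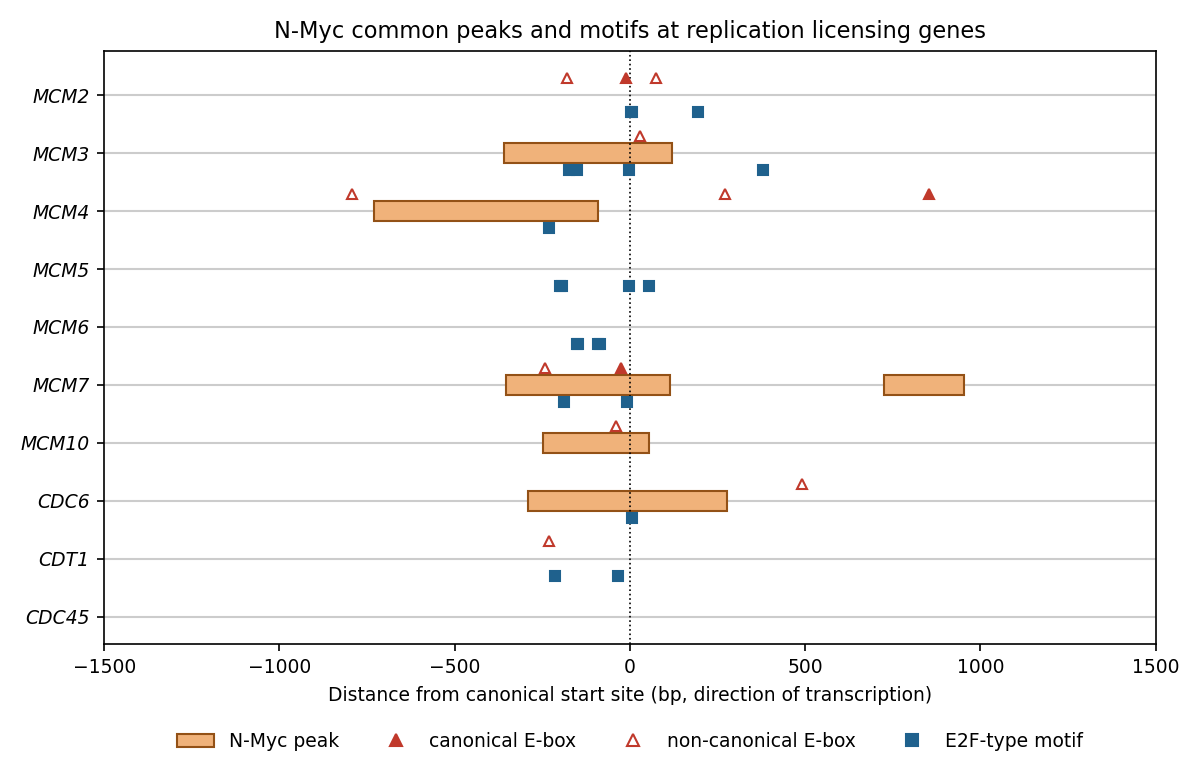
N-Myc common peaks (bars, to scale) and motifs (symbols) within 1500 bp of the canonical start of each gene; the x axis is the distance in bp in the direction of transcription, and motifs were searched within 1000 bp. The 6 peaks lie at MCM3, MCM4, MCM7, MCM10 and CDC6, while MCM2, MCM5, MCM6, CDT1 and CDC45 have none in this window.

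The distance from the peak centre to the nearest promoter row centre of the same licensing gene had a median of 157 bp over the 6 peaks (19 to 423 bp). To the nearest promoter row of any gene, AP4M1 and PRKDC included, the median was 56.2 bp (11 to 330 bp), beside 184 bp measured in the same way over all 3550 N-Myc promoter peaks. For the 5 genes without a promoter row, the distance from the canonical start to the nearest N-Myc peak was 6.75 to 36.4 kb with a median of 30.1 kb, beside 81.8 kb for the 15451 coding genes outside the promoter list.

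The canonical E-box, the site that Myc-MAX dimers bind best, was searched first in the promoter peaks. Of the 6 promoter peaks, 1 held a canonical E-box, the larger peak of MCM7, beside 36.9% of all N-Myc promoter peaks. A non-canonical E-box was found in 3 of the 6, at MCM3, MCM7 and MCM10, beside 29.2%. The peaks at MCM4 and CDC6 held neither form. E2F-type motifs were found in 4 of the 6, at MCM3, MCM4, MCM7 and CDC6, beside 19.6%. The narrow peak in the MCM7 intron held none of the motifs.

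The promoters of all 10 genes were then compared in a window of fixed size, from 250 bp before to 50 bp after the canonical start. The E2F-type motif was present in 8 of the 10 windows, beside 8.79% of coding genes, 14.1% of those with an N-Myc peak within 1 kb of the canonical start and 7.62% of those without. MCM10 and CDC45 lacked it. Of the 8 genes with the motif, 4 had an N-Myc promoter row (MCM3, MCM4, MCM7 and CDC6) and 4 had none (MCM2, MCM5, MCM6 and CDT1). With the stricter letters TTTGGCGC or TTTCCCGC it was 7 of 10, without MCM2, beside 3.07% of coding genes. The match nearest to the start was at -4 in MCM3 and MCM5, -9 in MCM7, 2 in MCM2, 7 in CDC6 and -35 in CDT1, and farther upstream in MCM6 (-86) and MCM4 (-230). MCM5 also had overlapping matches at -199 and -195.

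The canonical E-box was present in 2 of the 10 windows, those of MCM2 and MCM7, beside 8.70% of all coding genes and 16.4% of those with an N-Myc peak. The non-canonical E-box was present in 5 of 10, at MCM2, MCM3, MCM7, MCM10 and CDT1, beside 15.3% of all coding genes and 22.7% of those with an N-Myc peak. A match is a description of the letters and does not show that a factor was bound there. The GC content of 2 kb around the start had a median of 51.5% (46.0 to 66.2%) in the 5 genes with a promoter row. It was 56% (55.4 to 66.8%) in the other 5, beside a median of 56.1% over coding genes. MCM3, MCM10 and CDC6 (46.0, 49.7 and 51.5%) lay below the range of the other 5, and MCM4 and MCM7 (62.0 and 66.2%) within it. The difference was not tested.

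**Figure D2:**
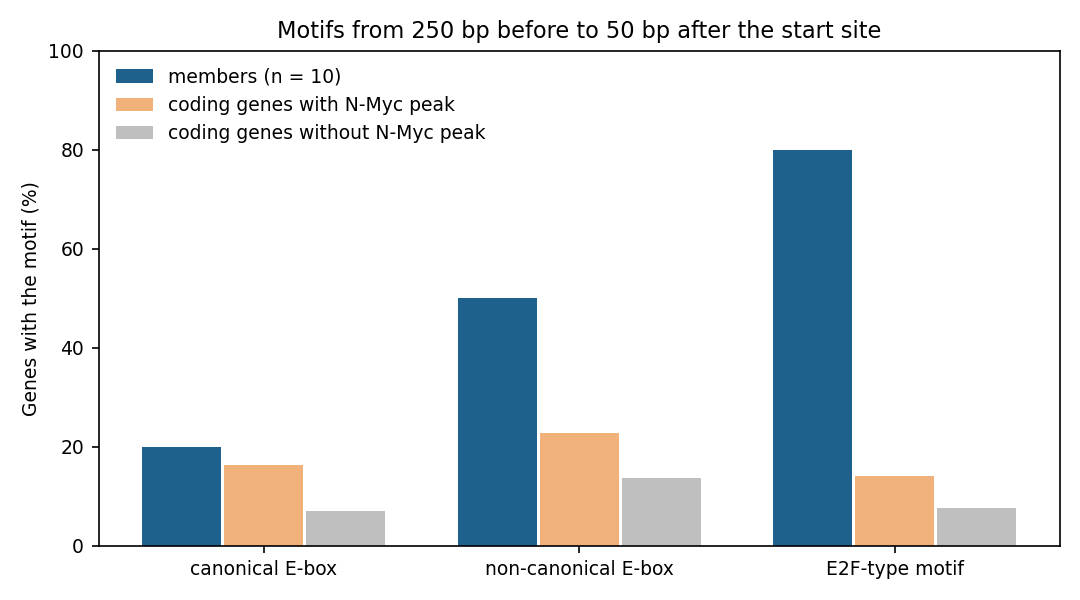
Share of genes (y axis, %) whose window from 250 bp before to 50 bp after the canonical start held each motif, for the 10 licensing genes and for autosomal coding genes with (3453) and without (15518) an N-Myc peak within 1 kb. The E2F-type motif is in 8 of the 10 licensing genes and the canonical E-box in 2.

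Typical enhancers are stretches of H3K27ac signal, and each list row names its nearest genes. N-Myc-bound typical enhancer rows named 5 of the 10 genes (MCM2, MCM3, MCM4, MCM6 and CDC6) in 6 rows, beside 33.1% of coding genes. Of these rows 3 overlapped the promoter row of the same gene. They lay over MCM3 (52148133 to 52150826), MCM4 (48871501 to 48874701) and CDC6 (38443378 to 38444826), and the peak in each was the promoter peak already described. All 3 spanned the start of the gene, although the stated definition of enhancers subtracts H3K27ac peaks within 1 kb of start sites. By gene name, 3 of the 5 genes in the N-Myc promoter list were also in the N-Myc typical enhancer list. The share was 72.9% of the 3520 coding genes in the promoter list, so this is not particular to the licensing genes. The row that named MCM2, from 127309533 to 127318443, extended over the MCM2 start, but its 2 N-Myc peaks were centred at -7548 and -6946, both under promoter rows of TPRA1.

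The remaining rows lay far from the genes they named. The row that named MCM6, from 136741229 to 136743365, was listed at -108301 bp from MCM6 and lay at the start of DARS, an aminoacyl-tRNA synthetase gene, and its 2 peaks were under promoter rows of DARS and DARS-AS1. The other row that named CDC6, from 38374318 to 38388519, was listed at -62467 bp from CDC6 and lay at WIPF2. It held a peak at the WIPF2 start and another from 38387329 to 38387867, the only peak in these 6 rows that was over 1 kb from every annotated start. At MCM7 a typical enhancer of 22.4 kb, from 99678023 to 99700393, covered the start and held 3 N-Myc peaks, but the list assigned it to AP4M1 and COPS6. No N-Myc super-enhancer row named any of the 10 genes, beside 1.38% of coding genes.

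No JMJD6 peak lay within 260 kb of any of the 10 starts. No JMJD6 typical enhancer row named one of them, beside 0.954% of coding genes. No JMJD6 peak overlapped any of the 12 N-Myc peaks in their promoter or enhancer rows. For the 6 promoter peaks alone the count was 0, beside 1.38% of all N-Myc promoter peaks. The nearest JMJD6 peak was 260 kb from CDT1, 307 kb from CDC6, 587 kb from CDC45, 702 kb from MCM7 and 804 kb from MCM6. For the other genes it was farther away, at 1511 kb from MCM2, 1676 kb from MCM10, 2026 kb from MCM4, 2258 kb from MCM5 and 6627 kb from MCM3. The peak nearest to CDC6 was at the start of PSMD3 and that nearest to MCM10 at the start of CDNF, both in the JMJD6 promoter list. The median distance was 1157 kb for the 10 genes, beside 2389 kb over coding genes. JMJD6 was listed at few promoters in all, and the 10 genes are too few for a count of 0 to be read against that share.

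**Figure D3:**
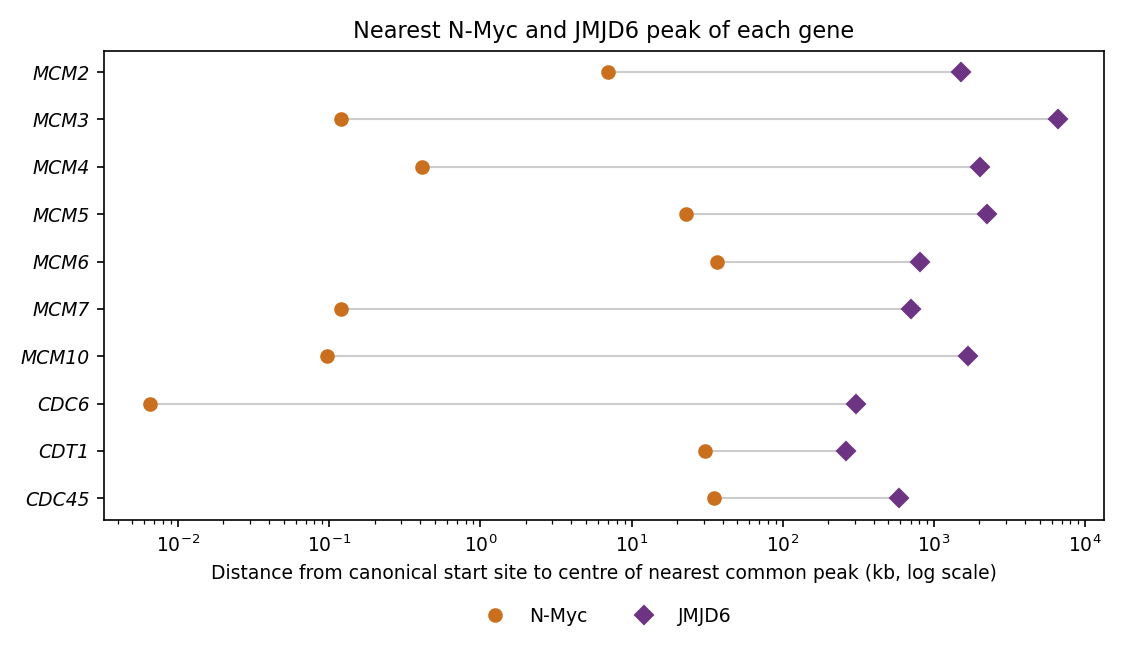
Distance (kb, log scale) from the canonical start of each gene to the centre of the nearest N-Myc peak (circles) and JMJD6 peak (diamonds). N-Myc peaks lie under 1 kb from 5 of the genes, and the nearest JMJD6 peak of any gene, at CDT1, is 260 kb away.

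Peak width is the only graded value in the lists, and it is not a measure of occupancy. The 6 promoter peaks had a median width of 474 bp (229 to 638 bp), beside 452 bp over all N-Myc promoter peaks. The peak at MCM4 was as wide as or wider than 77.9% of promoter peaks, that at CDC6 69.8%, that at MCM3 55.5% and the larger one at MCM7 53.1%. The narrow peaks at MCM10 and in the MCM7 intron stood at 14.7% and 1.77%.

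**Figure D4:**
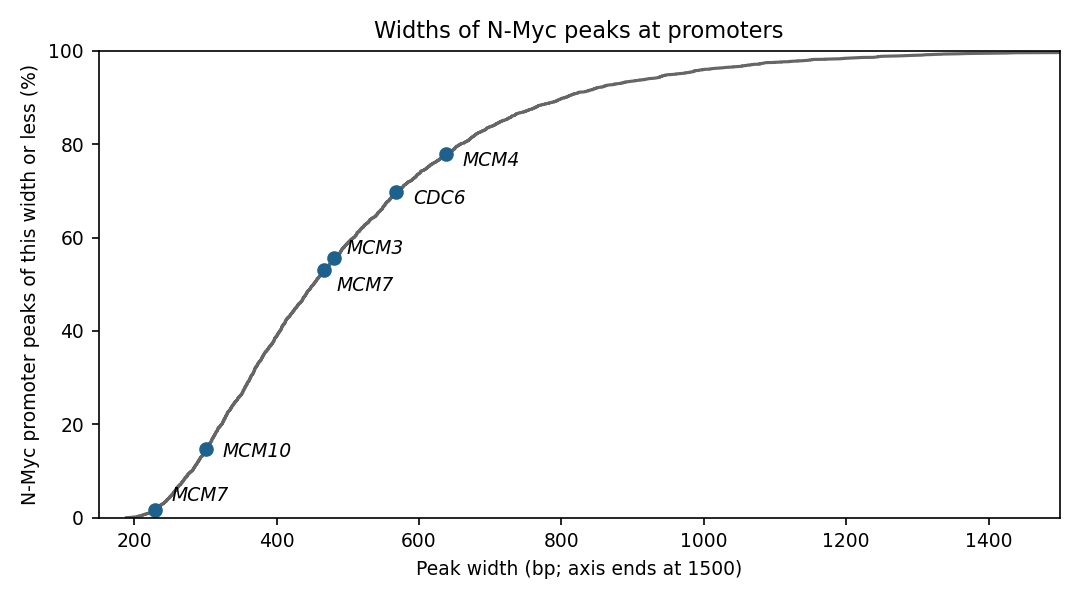
Cumulative share (y axis, %) of the 3550 N-Myc promoter peaks up to each width (x axis, bp), with the 6 peaks of the licensing genes as points. The points run from 229 bp in the MCM7 intron to 638 bp at MCM4.

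A wider list of DNA replication genes was examined by role. Of 55 autosomal genes 21 were in the N-Myc promoter list (38.2%, beside 18.6% of coding genes). N-Myc typical enhancer rows named 22 of the 55, beside 33.1% of coding genes. None of the 55 was in a JMJD6 promoter or enhancer list. Over coding genes those shares were 0.664% for promoters and 0.954% for typical enhancers. A count of 0 in 55 genes cannot be read against shares this small. In the counts by role, listed means in the N-Myc promoter list, and an unlisted gene may still be named in an enhancer row. The role of origin recognition and loading also took in GMNN, DBF4 and CDC7, which do not load the ring themselves. Of its 10 genes 6 were listed. These were ORC3, ORC4 and ORC6, GMNN, the inhibitor of CDT1, and DBF4 and CDC7, which form the kinase that acts on the loaded ring. ORC1, ORC2, ORC5 and MCMBP were not listed. ORC6 was listed without a common N-Myc peak within 194 kb of its start, and it was among 131 rows of the N-Myc promoter list that held no common peak. By position, 5 of the 10 genes of this role had an N-Myc peak within 1 kb of an annotated start. For the helicase activation genes it was 3 of 10, beside 21.7% of coding genes.

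Of the genes for helicase activation 2 of 10 were listed, TICRR and MTBP, which act together in origin firing. None of the 4 GINS genes was, nor were TOPBP1, RECQL4, WDHD1 and DONSON. N-Myc typical enhancer rows named 5 of these 10 genes, beside 33.1% of coding genes. These were GINS2, GINS3, GINS4, RECQL4 and DONSON, whose canonical starts lay 9.16 to 46.6 kb from the nearest N-Myc peak. MCM8, MCM9 and MCMDC2, relatives of the helicase subunits, were not listed, though a typical enhancer row named MCM9. By position, GINS4 and MCM9 did have an N-Myc peak within 1 kb of an annotated start, although their canonical starts lay 13.5 and 40.9 kb from the nearest peak. Among polymerase, clamp and ligation genes 8 of 19 were listed. These were the primase genes PRIM1 and PRIM2, the polymerase subunits POLD2, POLE3 and POLE4, the clamp loader genes RFC3 and RFC4, and the flap nuclease gene FEN1. RFC3 was the only gene of the wider list named in an N-Myc super-enhancer row, beside 1.38% of coding genes. The catalytic subunits POLD1 and POLE, the clamp PCNA and LIG1 were not listed, nor were POLA2, POLD3, POLD4, POLE2, RFC1, RFC2 and RFC5. POLA1 lies on chromosome X, where the N-Myc promoter list has no row, and an N-Myc peak lay 0.123 kb from its start.

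Of the single-strand binding and fork protection genes 3 of 6 were listed, RPA2, RPA3 and TIMELESS, and RPA1, TIPIN and CLSPN were not. Of the genes for turnover of licensing, with cyclin genes and CDK2 grouped among them, 2 of 7 were listed. These were DTL, which recruits CDT1 for degradation, and the cyclin gene CCNE2. SKP2, FBXO5, CCNA2, CDK2 and CCNE1 were not. The roles hold few genes each, and their differences were not tested.

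**Figure D5:**
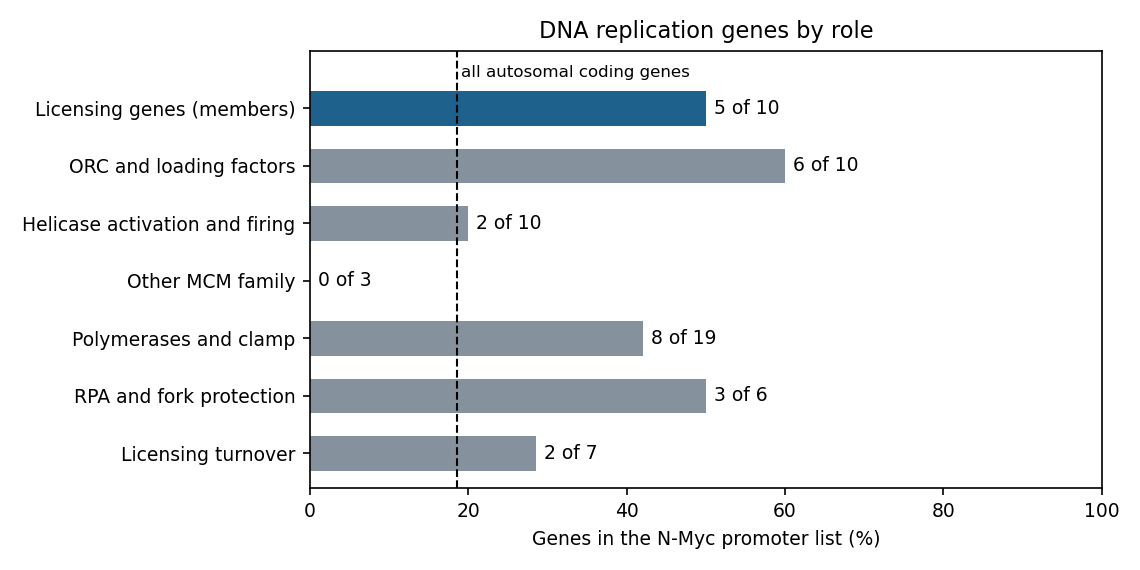
Share of genes (x axis, %) in the N-Myc promoter list for the licensing genes and 6 other roles in DNA replication, with the number listed of the number of autosomal genes beside each bar; the dashed line is the share over autosomal coding genes, 18.6%. The licensing genes stand at 5 of 10 and helicase activation at 2 of 10. The origin recognition and loading factors, grouped with GMNN, DBF4 and CDC7, stand at 6 of 10.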

How the data were processed

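The data were ChIP-Seq peak lists from CHP-134 cells, with 3 samples per antibody as the labels name it. Reads were aligned by the authors to hg19 with BWA, and they processed files with SAMtools and BEDTools and called peaks with MACS2 2.1.1.20160309 against input. They kept peaks with a q-value below 0.05 that were found in all 3 replicates, and defined enhancers with ROSE from H3K27ac peaks, after subtraction of those within 1 kb of start sites and stitching within 12.5 kb, each row naming its nearest genes by GREAT. The 12 deposited lists hold positions in bp, and the deposited files carry no q-value, score, count or column per sample.

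Rows naming a gene were taken by symbol, and peaks by an overlap of at least 1 bp. Of 4150 symbols in the N-Myc promoter list, 3958 matched the annotation, 3795 of them directly and the others through RefSeq synonyms. Starts came from GENCODE version 44 on GRCh37, and each promoter row centre of the 10 genes lay within 17 bp of an annotated start of its gene. Coordinates are 1-based. The procedures were tested on simulated intervals and sequences. The 10 genes, the wider gene lists and the rule that names all of them were chosen with earlier results of these data known. Alternatives changed the window, overlap, width and motif definition. Python 3.11.15, numpy 2.4.6, pysam 0.24.0 and matplotlib 3.10.9 were used.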

Additional observations from a re-analysis of the deposited data

How the results depend on the processing

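The lists allow no test over samples, no replicate could be left out, and depth is unknown. No paired analysis was possible because the lists have no column per sample. Of 20 alternatives, 15 left the count within 1.5 times its value or the median unchanged. The 5 genes with an N-Myc promoter row remained 5 with starts within 1 kb or 500 bp of a peak, became 6 (with CDC45) within 2 kb, and 4 (without MCM10) with peaks of at least the median width. Taking only enhancer rows with a peak over 1 kb from every start reduced the genes named in typical enhancers from 5 to 1, CDC6. Adding the non-canonical E-box raised the genes with an E-box in their promoter peak from 1 to 3. Genes with an E2F-type motif fell from 8 to 4 when whole N-Myc peaks were searched, since only 5 genes have such a peak. The median width was 481 bp for promoters of 1 strand, and the median distance to the start was 91 bp with annotated starts. By position, a comparison added after seeing the data, 22 of the 55 other replication genes had an N-Myc peak within 1 kb, in place of 21, with GINS4 and MCM9 gained and ORC6 lost.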

Other observations

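CCAAT or its complement ATTGG was noticed in several of the promoter sequences and was then counted, so this motif was chosen after the sequences were seen. In the window from 250 bp before to 50 bp after the canonical start, CCAAT on either strand was present in 8 of the 10 licensing genes, all but MCM2 and CDT1. The share was 35.7% over all autosomal coding genes, 39.7% of those with an N-Myc peak within 1 kb and 34.8% of those without. CCAAT is the core of the site of NF-Y, a factor of many cell cycle promoters, and a match of 5 letters is common.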
